A study of Homo sapiens with 8 samples.

Results

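Chromatin bound by mTOR was compared between LNCaP cells that carried a short hairpin against FoxA1 (shFoxA1) and received the synthetic androgen R1881 and the same cells given only the vehicle ethanol (EtOH). LNCaP, an established cell line from a human prostate cancer, is androgen-responsive. All cells were first deprived of androgen for 48 h in RPMI medium with charcoal-stripped serum at 2%, and then received 0.1% EtOH or 10 nM R1881 for 24 h. The study holds 8 libraries, of which 4 are mTOR immunoprecipitates and 4 are inputs, and an empty vector (shEV) is its hairpin control. Each group has 1 library, so differences have no replicate check, no p-value is given, and all intervals are 95% intervals that cover counting error only. The level of FoxA1 was not measured here, nor was any transcript, and the labels do not say whether the hairpin cells were a clone or a pool.

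The peaks were divided by overlap on chromosomes 1 to 22, X and Y. A peak of the R1881 list with no EtOH peak overlapping it by at least 1 bp was called gained, a peak of the EtOH list with no such R1881 peak was called lost, and the others were called shared. Of 39570 R1881 peaks, 17624 were gained (44.5%). Of 35121 EtOH peaks, 13173 were lost (37.5%). The shared set held 21946 peaks of the R1881 list and 21948 of the EtOH list. The terms describe presence in thresholded lists and not a measured difference in occupancy. Read totals are not part of the lists and library depth is therefore unknown, so the longer R1881 list cannot be told apart from a deeper or better enriched library. The libraries with the empty vector entered neither side of the division and were used as a separate pair.

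mTOR is a serine/threonine kinase that joins nutrient and growth-factor signals to growth, in mTOR complex 1 with the subunit raptor (RPTOR) and in mTOR complex 2 with the subunit rictor (RICTOR). A fraction of the protein is found in the nucleus on chromatin, and in prostate cancer cells androgen signalling and mTOR are linked in the control of metabolic genes. The androgen receptor binds DNA as a dimer, most often far from promoters, and FoxA1 is a pioneer factor of the forkhead family that opens chromatin for it.

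Gained peaks lay in introns and at intermediate distances more often than lost peaks, and lost peaks lay at promoters more often. Introns held 43.5% of the gained peaks (42.8 to 44.3), 40.6% of the lost peaks (39.8 to 41.5) and 33.9% of the shared peaks. Promoters held 7.23% of the gained peaks (6.86 to 7.62), 9.98% of the lost peaks (9.48 to 10.5) and 14.4% of the shared peaks (13.9 to 14.8). The gained share was thus below the lost share by 2.75 percentage points, with an interval of the gained minus lost difference from -3.40 to -2.12. The 5′ UTR class showed the same order, with 0.460% of gained, 0.964% of lost and 1.25% of shared peaks. Intergenic sequence took nearly equal parts of the 3 sets, at 44.6%, 44.4% and 44.7%.

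Distances to the nearest transcription start site (TSS) repeated this order. Within 1 kb of a TSS lay 11.1% of the gained, 15.6% of the lost and 21.1% of the shared peaks. Between 1 and 10 kb the gained peaks led, with 17.2% against 14.2% of the lost and 14.2% of the shared peaks. Between 10 and 50 kb the gained peaks led again, with 35.9% against 30.8% and 30.0%. Beyond 100 kb the lost peaks led, with 24.0% against 20.4% of the gained peaks. The median absolute distance was 28.5 kb for gained, 31.3 kb for lost and 23.8 kb for shared peaks. In the empty-vector pair the promoter shares were 7.53% of gained and 9.69% of lost peaks, so the difference had the same sign in the separate pair of libraries. With peaks in annotated repeats left out, the promoter shares rose to 17.2% of gained and 24.7% of lost peaks.

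**Figure D1:**
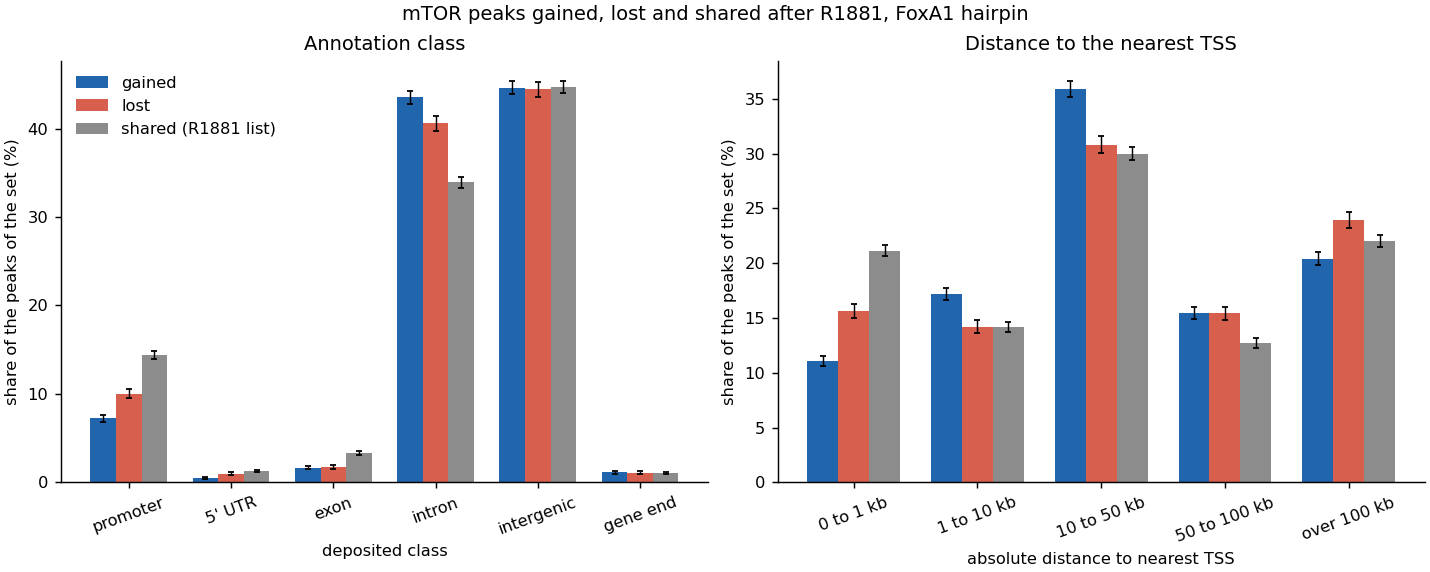
Share of the gained, lost and shared peaks in each annotation class (left) and in each band of absolute distance to the nearest TSS (right), in percent of the set; error bars are 95% Wilson intervals for counting error. At promoters and within 1 kb of a TSS the bars descend from shared to lost to gained, while between 1 and 50 kb the gained bar is the highest.

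To show what kind of sequence was involved, 6 promoters with a gained or lost peak are printed here. FOS, PTPN14 and SLC35C1 come from the 10 highest-scoring promoter peaks of their set, and KLK2, FDPS and RPL29 from the lists of androgen-induced, sterol synthesis and ribosomal protein genes, with peak scores of 74, 83 and 113. The 250 bases before each TSS come from the RefSeq promoter table of GRCh38.p14, 5′ to 3′ on the strand of the gene, with matches to the motifs searched in capitals. The gained examples are FOS (chr14:75278578-75278827, plus strand), which had the top gained promoter peak and encodes an immediate-early subunit of the AP-1 factor, KLK2 (chr19:50873189-50873438, plus strand), which encodes an androgen-induced kallikrein protease, and FDPS (chr1:155308616-155308865, plus strand), which encodes a farnesyl diphosphate synthase of the mevalonate pathway. The lost examples are PTPN14 (chr1:214551603-214551852, minus strand), which encodes a tyrosine phosphatase, SLC35C1 (chr11:45804899-45805148, plus strand), which encodes a GDP-fucose transporter, and RPL29 (chr3:51995896-51996145, minus strand), which encodes a protein of the large ribosomal subunit.
FOS: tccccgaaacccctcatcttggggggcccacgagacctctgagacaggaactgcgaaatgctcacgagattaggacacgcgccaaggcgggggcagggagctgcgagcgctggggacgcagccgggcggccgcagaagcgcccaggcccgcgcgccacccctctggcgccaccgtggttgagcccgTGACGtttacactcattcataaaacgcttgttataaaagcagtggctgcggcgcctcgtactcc
KLK2: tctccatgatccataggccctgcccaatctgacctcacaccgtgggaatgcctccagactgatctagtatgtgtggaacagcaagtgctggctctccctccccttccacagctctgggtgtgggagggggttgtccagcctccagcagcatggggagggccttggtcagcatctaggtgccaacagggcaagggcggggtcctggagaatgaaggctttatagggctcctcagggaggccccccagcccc
FDPS: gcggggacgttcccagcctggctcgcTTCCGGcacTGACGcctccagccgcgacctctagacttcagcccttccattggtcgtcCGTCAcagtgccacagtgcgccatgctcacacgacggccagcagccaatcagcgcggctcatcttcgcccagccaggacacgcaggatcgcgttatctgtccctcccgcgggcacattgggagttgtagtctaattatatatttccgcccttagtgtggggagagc
PTPN14: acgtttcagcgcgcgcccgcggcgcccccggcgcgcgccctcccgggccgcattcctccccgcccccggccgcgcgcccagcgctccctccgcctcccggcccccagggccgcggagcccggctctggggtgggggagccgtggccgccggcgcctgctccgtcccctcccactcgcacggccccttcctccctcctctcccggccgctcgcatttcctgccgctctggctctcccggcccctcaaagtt
SLC35C1: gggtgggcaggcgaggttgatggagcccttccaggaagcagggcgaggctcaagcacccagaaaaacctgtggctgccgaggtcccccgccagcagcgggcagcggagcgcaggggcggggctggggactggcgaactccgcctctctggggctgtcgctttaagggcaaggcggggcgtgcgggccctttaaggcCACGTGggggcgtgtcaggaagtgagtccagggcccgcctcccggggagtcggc
RPL29: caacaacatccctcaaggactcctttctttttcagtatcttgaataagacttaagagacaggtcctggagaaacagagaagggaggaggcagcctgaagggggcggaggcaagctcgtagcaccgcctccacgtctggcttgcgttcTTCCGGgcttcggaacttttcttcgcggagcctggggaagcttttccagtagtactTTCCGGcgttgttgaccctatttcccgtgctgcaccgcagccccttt

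The FOS sequence holds 1 match to TGACG, the core of the cAMP response element, and the FDPS sequence holds 2, as well as 1 match to the ETS core CCGGAA. The RPL29 sequence holds 2 ETS cores, and the SLC35C1 sequence holds 1 E-box, CACGTG. In the KLK2 and PTPN14 sequences none of the 6 motifs searched was found as an exact match. Imperfect elements were not searched, so this does not show that sites of the androgen receptor are absent there. The GC content ranged from 54.4% in RPL29 to 80% in PTPN14. The gained KLK2 peak, with a score of 74 and centred at -264 bp from the TSS, covered 174 of the 250 bases, and the lost RPL29 peak, with a score of 113, covered 158. The other 4 sequences lay wholly inside their peaks.

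The motif count was then extended to the 300-base windows, from 250 bases before to 50 after each TSS, that the table gives for 15843 of 20037 protein-coding genes. Of 22199 windows, 1073 were overlapped by gained peaks only, 1266 by lost peaks only and 3615 by shared peaks, while 16234 had no peak; the few others had a gained and a lost peak. Matches were sought on both strands to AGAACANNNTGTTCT (the palindromic androgen response element), AGAACA (its hexamer, contained in the former), TGTTTAC (a forkhead motif), CACGTG (the E-box), CCGGAA (the ETS core) and TGACG (the cAMP response element core). Windows with a peak of any set differed little among themselves and differed from windows without one. ETS cores stood in 32.4% (29.7 to 35.3) of the gained windows, 30.2% (27.7 to 32.8) of the lost and 30.2% of the shared, against 17.7% of those without a peak and 21.2% of all. The TGACG core stood in 34.5%, 33.0% and 32.8% of them, against 26.0% without a peak and 27.9% of all. E-boxes stood in 9.79%, 10.3% and 10.8%, against 7.53% and 8.34%. The androgen hexamer had the opposite order, at 7.36%, 7.03% and 6.89% against 13.5% without a peak and 11.7% of all. Forkhead motifs stood in 1.96%, 1.74% and 2.16%, against 3.15% and 2.85%. The full androgen element was found as an exact match in 0 of 22199 windows. So long an exact match is rare in any sequence and imperfect elements were not searched, so this count does not show that such elements are absent. Median GC content was 65.7% in gained, 68.2% in lost and 67.3% in shared windows, against 60.0% in those without a peak. It was thus higher in windows with a peak, and its part in the motif shares was not tested.

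The top gained promoter peaks scored far below the top shared ones. Peak scores are the authors' values, and they are compared here only within a list. The highest-scoring gained promoter peaks were at FOS (306), PYM1, which encodes a partner of the exon junction complex (209), and NODAL, which encodes a TGF-β family ligand (175). TRIM28, the gene of a corepressor of zinc-finger proteins, and UBE2F, the gene of a NEDD8-conjugating enzyme, followed with 153 each. In the same R1881 list, shared promoter peaks reached 13546 at ROCK1P1, 2955 at UBE3C and 2466 at KMT5B. The lost promoter peaks were led by MIR3648-1 (177) and PTPN14 (166), ahead of PTPN4, KLHDC10 and SLC35C1 (155 each) and MAPKAPK2, the gene of a stress-activated kinase (144). Of the 10 top gained promoter peaks, those at FOS and EEF1D overlapped a peak in both empty-vector lists, and those at UBE2F, TRIM28 and LINC01001 overlapped none.

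The score of a peak went with how often it was called gained or lost. It also went with how often a gained or lost peak was present in the separate libraries. The median score in the R1881 list was 41 for gained and 83 for shared peaks, and the median widths were 402 and 552 bp. In the EtOH list the median score was 42 for lost and 84 for shared peaks. Across quintiles of the R1881 list by score, the gained share was 73.4% in the lowest, 60.3%, 48.7% and 31.2% in the next, and 9.12% in the highest. The lost share of the EtOH list declined in the same order, from 68.5% to 3.43%.

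Over all gained peaks, 24.2% overlapped a peak of the shEV R1881 list and 13.1% a peak of the shEV EtOH list, and 68.2% overlapped neither. Over all lost peaks the order turned, with 16.3% in shEV R1881 and 23.1% in shEV EtOH, and 68.3% in neither. Shared peaks were found in the 2 empty-vector lists at 65.6% and 67.4%. The difference between the empty-vector lists widened with the score. In the lowest quintile 10.9% of gained peaks were found in shEV R1881 and 7.13% in shEV EtOH. In the highest quintile, which held 722 gained peaks, 78.4% (75.2 to 81.2) were found in shEV R1881 and 19.8% (17.1 to 22.9) in shEV EtOH. The 241 lost peaks of the highest quintile were found in shEV EtOH at 73.4% (67.5 to 78.6) and in shEV R1881 at 41.1% (35.1 to 47.4). Among the 10000 highest-scoring peaks of each list, 41.7% of the gained and 40.4% of the lost peaks had a peak in the empty-vector library of the matching treatment.

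**Figure D2:**
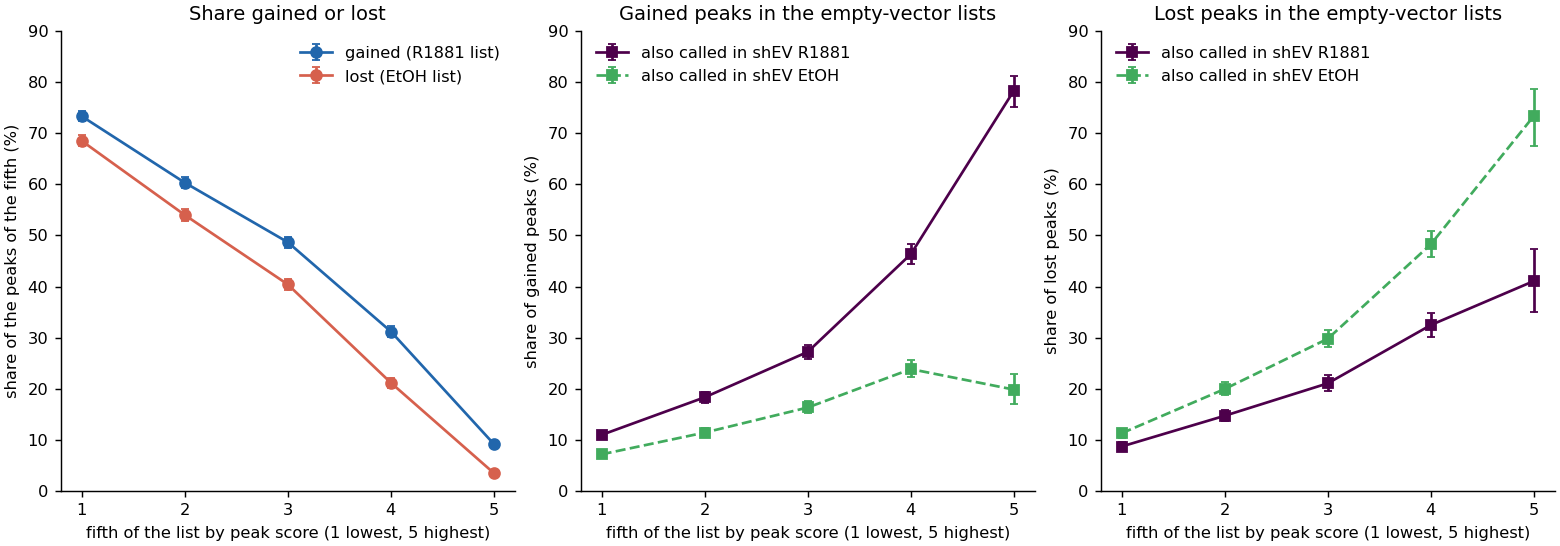
Left, share of R1881 peaks that were gained and of EtOH peaks that were lost in each quintile of their list by score; middle and right, share of those gained and lost peaks that overlapped a peak of each empty-vector list; bars are 95% Wilson intervals. The changed share drops to 9.12% and 3.43% in the highest quintile, where the 2 empty-vector lists are farthest apart.

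The composition of strong and weak changed peaks differed. From the lowest to the highest quintile the promoter share of the gained peaks went from 8.34% to 2.08%, and that of the lost peaks from 11.2% to 3.32%. Repeats made up 55.7% of the lost peaks in the lowest quintile and 86.3% in the highest, with the median GC content going from 45.9% to 39.5%. Among the gained peaks repeats stayed between 55.6% and 66.8% over the quintiles. How well reads map in repeats was not assessed here.

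The balance of gained against lost peaks differed among repeat families, most of which are the remains of mobile elements of different age. Over all peaks 57.2% of the changed ones were gained (56.7 to 57.8). Above this lay L2, an ancient LINE, which had 499 gained and 195 lost peaks (71.9% gained, 68.4 to 75.1), and MIR, an ancient SINE, with 315 and 166 (65.5%). The DNA transposons of the hAT-Charlie family had 147 and 64 (69.7%), and Alu elements, primate SINEs, had 1445 and 794 (64.5%). L1, the largest family, had 5461 and 4571 (54.4%). Below an even balance lay SVA, a hominid composite element, with 184 gained and 253 lost (42.1%, 37.6 to 46.8), centromeric satellites with 233 and 296 (44.0%), and the endogenous retroviruses of the ERV1 family with 650 and 677 (49.0%). Peaks outside repeats stood at 58.8%.

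Single elements went further in both directions. Of the 56 repeat names with at least 80 changed peaks, L2b had the highest gained share, with 124 gained and 30 lost (80.5%). MER52A, a retroviral long terminal repeat, had the lowest, with 19 and 71 (21.1%), followed by L1PB1 with 51 and 138 (27.0%). L1 elements lay on both sides of the overall balance, from L1PB1 and L1M2 (32.8%) up to L1PA7 (62.2%) and L1PA6 (67.0%). In the empty-vector pair, whose overall balance was 52.5% gained, L2 stood at 66.8%, L2b at 67.8%, Alu at 57.2%, L1 at 49.7%, ERV1 at 41.6%, SVA at 38.6%, MER52A at 12.2% and L1PB1 at 28.4%. The other named L1 elements lay nearer to the balance of their pair than with the FoxA1 hairpin, with L1M2 at 47.7%, L1PA7 at 53.2% and L1PA6 at 50.8%. L2 and Alu thus stood above the overall balance, and L1, ERV1 and SVA below it, in both pairs, which share no library.

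GC content of the peak also moved with the balance. From the lowest to the highest quintile of GC content, the gained percentage of changed peaks was 50.2, 60.5, 65.2, 62.0 and 47.0, with the maximum between 42.1% and 48.0% GC. In the empty-vector pair the same quintiles gave 52.1, 52.8, 59.2, 53.8 and 43.2. The highest quintile, above 57.4% GC, was the only one below 50% in either pair. The part of GC content in the promoter and repeat values above was not tested. Chromosome 22 had the highest gained percentage, at 62.1, while X stood at 50.3 with 189 gained and 187 lost, and Y at 35.9 with 14 and 25.

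**Figure D3:**
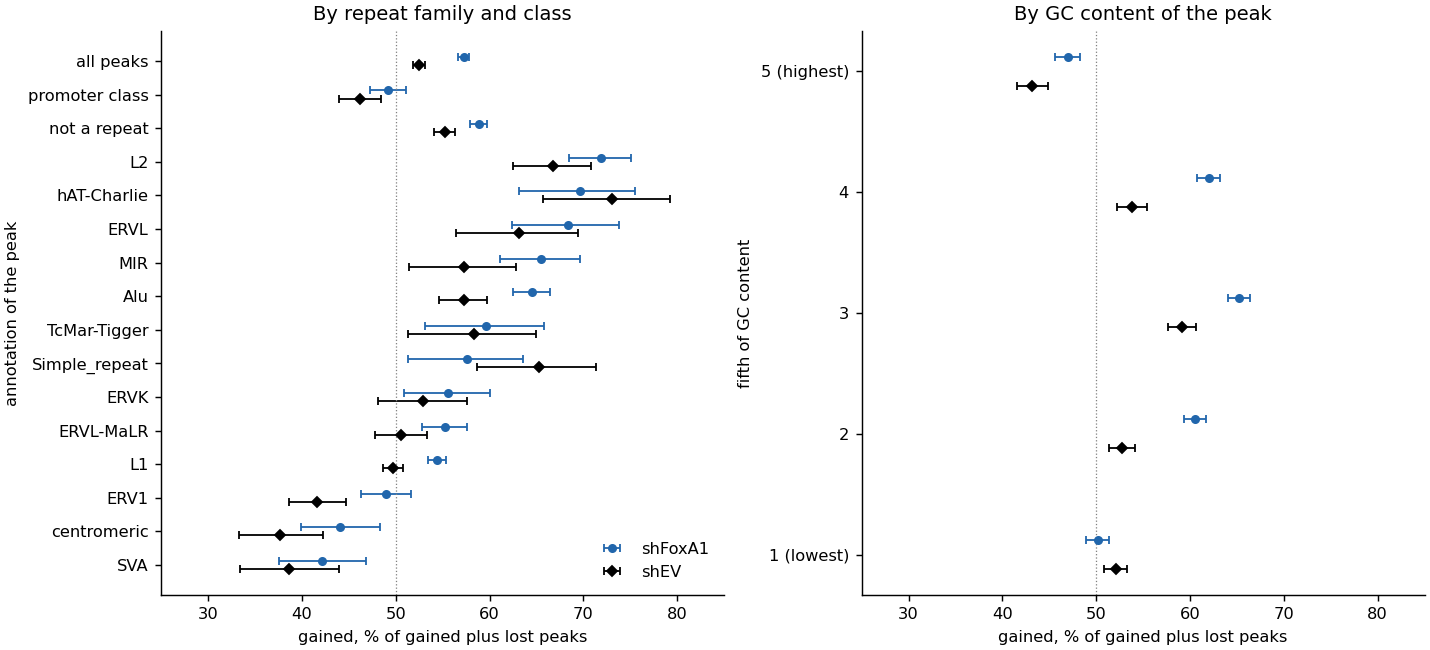
Gained peaks as a percentage of gained plus lost peaks, by repeat family and class (left) and by quintile of GC content (right), for the FoxA1-hairpin pair (circles) and the empty-vector pair (diamonds), with 95% Wilson intervals; the dotted line marks 50%. L2 (71.9 and 66.8) and SVA (42.1 and 38.6) lie on opposite sides of that line in both pairs.

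Outside promoters and repeats, the strongest gained peaks had a counterpart in the empty-vector cells given androgen. The 10 highest were assigned by the files to RBFOX3 (score 2955), LOC390705 (1230), TBC1D22A-AS1 (933), CEP120 (838), PPP4R3A (699), LOC102724484 (669), TACC2 (624), MSN (609), SGPP2 (537) and MYL10 (522). All 10 overlapped a peak in shEV R1881 and none overlapped one in shEV EtOH. Their distances varied widely: the peak at RBFOX3 lay 196349 bp from its TSS and that at MSN 170834 bp, while that at TACC2 lay 8346 bp away. The lost peaks of this kind were led, on the scale of the EtOH list, by LOC100506585 (322), LINC01790 (247), ACSBG2 (211), an acyl-CoA synthetase gene, and CYBRD1 (200), an iron reductase gene. Of the 10 highest, 7 overlapped a peak in shEV EtOH, LINC01790 and CYBRD1 among them, and 1, at ATP8B1, overlapped one in shEV R1881 as well.

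Genes were described by the peaks assigned to them, which are those whose nearest gene in the file they were and that lay within 50 kb of a TSS of that gene. Of 20037 protein-coding genes, 5863 had at least 1 gained peak (29.3%) and 4628 had at least 1 lost peak (23.1%). Gained peaks without lost ones stood at 3847 genes, lost without gained at 2612, and both at 2016. A further 3373 genes had shared peaks only and 8189 had no peak. With assignment within 10 kb in place of 50 kb, the share of genes with a gained peak was 16.9%.

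A set of 243 genes had at least 3 gained peaks and no lost peak. In the empty-vector pair, which the choice of these genes did not use, gained peaks outnumbered lost ones at 129 of them (53.1%) and lost outnumbered gained at 43 (17.7%). Over all coding genes these shares were 16.1% and 13.9%, although most of those genes had few peaks. The reverse set, with at least 3 lost and no gained peak, held 73 genes, of which 33 (45.2%) had more lost and 13 (17.8%) more gained peaks with the empty vector.

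PPFIA2, the gene of the scaffold protein liprin-α2, had the most gained peaks, with 12 gained, 6 lost and 6 shared, all but 1 of the gained and lost ones in introns. With the empty vector PPFIA2 had 7 gained and 7 lost. TPD52, a gene amplified and androgen-regulated in prostate cancer, had 9 gained and 2 lost, against 4 and 3 with the empty vector. THRAP3, the gene of a transcription and splicing factor, had 8 gained and 1 lost, and its gained peaks ranged in score from 14 to 83. SEPTIN9 had 8 gained and 4 lost, whereas with the empty vector it had 0 gained and 7 lost. LIMCH1, which encodes an activator of non-muscle myosin, had 7 gained, 0 lost and 8 shared, and SCRT2, a zinc-finger repressor gene, had 7 gained and 0 lost. CUX2, a homeobox gene, had 7 gained and 2 lost, the strongest of the gained with a score of 269. With the empty vector the gained and lost peaks numbered 7 and 2 at LIMCH1, 5 and 1 at SCRT2 and 6 and 1 at CUX2.

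Among the genes with most lost peaks, PRKD1, the gene of protein kinase D1, had 10 lost and 5 gained, and with the empty vector 9 and 3. NDUFAF6, an assembly factor gene of respiratory complex I, had 6 lost and 0 gained, and 5 and 1 with the empty vector. TTC6, the neighbour of FOXA1 on chromosome 14, had 8 lost and 2 gained, with lost scores from 21 to 113. In the empty-vector pair TTC6 had 1 lost and 2 gained. KANSL1, PTPRF and FBXL4 had 9, 6 and 6 lost peaks against 5, 1 and 1 gained. PTPRF, a receptor phosphatase gene, had 0 lost and 1 gained with the empty vector. At FOXA1 itself, the target of the hairpin, 1 intergenic peak was gained (chr14:37566735-37567387, score 74, 28188 bp from the TSS) and none was lost.

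The genes that androgen induces carried far more gained than lost peaks. Over 38 such genes 67 peaks were gained, 20 were lost and 39 were shared. At least 1 gained peak stood at 29 of them (76.3%, against 29.3% of coding genes) and at least 1 lost peak at 13 (34.2%, against 23.1%). No peak of any set stood at 2 of the 38 genes, against 40.9% of coding genes, so the list had peaks more often in general. It was also chosen with earlier results of these data known. Gained peaks outnumbered lost ones at 26 genes (68.4%, against 21.96% of coding genes). Lost outnumbered gained at 4 (10.5%, against 14.87%). The median of gained minus lost peaks was 1 for the list and 0 for all coding genes, and 77.0% of the changed peaks of the list were gained against 58.5% of those at all coding genes. The empty-vector pair had 48 gained and 13 lost peaks there. The net of 47 was 45 to 47 when overlap was defined by 50% of the shorter peak or within 1000 bp, 31 without repeat peaks, 19 within 10 kb of a TSS and 12 when each list was limited to its 10000 highest-scoring peaks.

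FKBP5, a cochaperone gene of steroid receptors and a classical androgen target, gained peaks with scores of 466, 257 and 65 at 5947, 953 and 4372 bp from a TSS, all in introns. It lost 2 intronic peaks, with scores of 134 at 516 bp and 58 at 19810 bp. The 2 stronger gained peaks overlapped a peak in shEV R1881 only, and the stronger lost peak overlapped one in shEV EtOH only. ZBTB16, the gene of the zinc-finger repressor PLZF, gained 6 peaks between -25908 and 18893 bp, with scores from 20 to 122, lost 1 (27) and kept a promoter peak (83). Of its gained peaks 3 overlapped a peak in shEV R1881 and none overlapped one in shEV EtOH. NDRG1, a stress-response gene, gained 4 and lost none, the strongest with a score of 132 at -29658 bp.

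Among the other androgen-induced genes, KLK2 gained its only peak, at the promoter printed above. KLK3, the gene of prostate-specific antigen, gained 1 peak (34, at 6678 bp), lost 1 (42, at -7774 bp) and had 2 shared peaks, of which the one at -3998 bp had a score of 102. KLK4 went the other way, with 0 gained and 2 lost (34 and 27). TMPRSS2, a serine protease gene, gained 2 weak peaks (41 and 34) and lost 1 (42). TRPM8, a cation channel gene, gained 3 intronic peaks (92, 65 and 41), ABCC4, a transporter gene, gained 3 (74, 49 and 20), and PMEPA1, a gene that restrains androgen and TGF-β signalling, gained 3 (83, 49 and 34). None of these 3 genes lost a peak. CAMKK2, a kinase gene upstream of AMPK, gained 2 promoter peaks (65 and 41) next to a shared peak of 221. SORD, the sorbitol dehydrogenase gene, gained 4 and lost 3. STEAP4, HERC3 and APPBP2 joined KLK4 as the genes with more lost than gained peaks, and ACSL3 and HPGD had no peak at all.

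The 10 androgen-repressed genes had 6 gained, 15 lost and 8 shared peaks. A lost peak stood at 7 of them (70%, against 23.1% of coding genes) and a gained one at 5 (50%, against 29.3%). Lost outnumbered gained at 5 genes (50%, against 14.87% of coding genes). The reverse held at 2 (20%, against 21.96%). With the empty vector 2 peaks were gained and 9 lost. UGT2B15, the gene of an androgen-glucuronidating enzyme, lost 4 intergenic peaks, all in L1 elements, with scores of 75, 42, 42 and 21. OPRK1, the kappa opioid receptor gene, lost 3 (66, 34 and 27) and gained 1 (41). CAMK2N1, which encodes an inhibitor of CaM kinase II, lost a promoter peak (21) and another peak at 5043 bp (27). DDC, the dopa decarboxylase gene, lost 2 peaks in L1 elements (58 and 42). Other members did not lose more than they gained: MET gained 1 peak and lost 0, and ACKR3 gained 1 and lost 1. The net of -9 was -10 with peaks within 1000 bp counted as shared, -3 within 10 kb of a TSS, -1 without repeat peaks and 0 when each list was limited to its 10000 highest-scoring peaks.

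**Figure D4:**
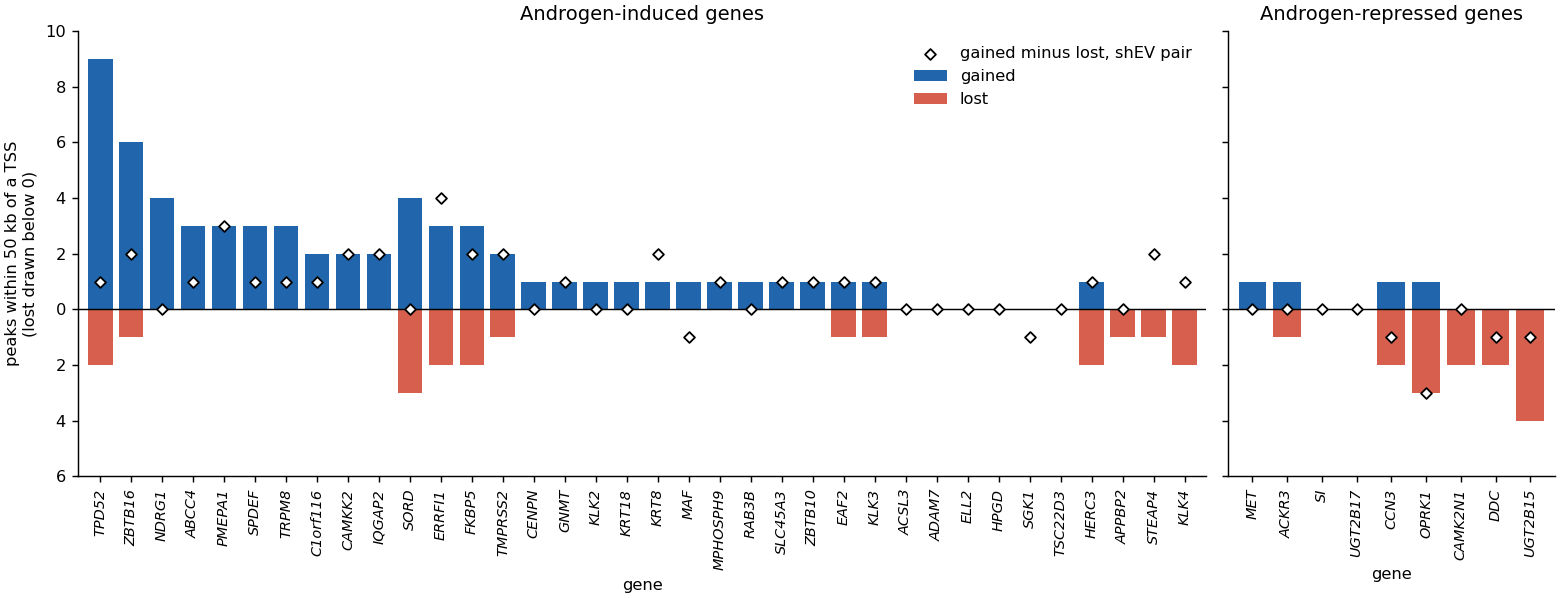
Gained peaks (bars above 0) and lost peaks (bars below 0) within 50 kb of a TSS for 36 of the 38 androgen-induced and 9 of the 10 androgen-repressed genes, ordered by gained minus lost; diamonds give gained minus lost in the empty-vector pair. Bars above 0 dominate the first panel, led by TPD52 (9) and ZBTB16 (6), and UGT2B15 (4 lost) ends the second.

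Prostate luminal transcription factors, which specify the secretory epithelium, had 41 gained, 11 lost and 29 shared peaks over 20 genes. A gained peak stood at 17 of them (85%, against 29.3% of coding genes) and a lost peak at 7 (35%, against 23.1%). Some members, among them SPDEF, belong to the androgen lists as well. EHF, an ETS factor gene of epithelia, gained 6 and lost none, 4 of the 6 within 5 kb of a TSS, with scores from 14 to 65. GRHL2, a grainyhead factor gene, gained 7, with scores from 20 to 65, and lost 1 of 123 at 1494 bp. TFAP2C, an AP-2 factor gene, gained 4 (41, 41, 34 and 20) and lost none, and with the empty vector it gained 1 and lost 2. With the empty vector the list had 25 gained and 13 lost peaks. Coregulators and chaperones of the androgen receptor had 20 gained and 20 lost peaks over 29 genes. A gained peak stood at 44.8% of them and a lost peak at 44.8%, against 29.3% and 23.1% of coding genes. Within this list FKBP4, another cochaperone gene of steroid receptors, gained 3 peaks, of which 1 scored 358, and lost 1.

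The genes of the mTOR complexes themselves had 5 gained, 8 lost and 7 shared peaks over 9 genes. A gained peak stood at 55.6% of them and a lost peak at 44.4%, against 29.3% and 23.1% of coding genes. MTOR had 1 gained peak, in an L2a element of an intron 6059 bp from the TSS (score 57), which also overlapped a shEV R1881 peak but no shEV EtOH peak. RPTOR lost 3 peaks and gained none: 1 of 123 at -21596 bp, 1 of 42 at the promoter and 1 of 21 at 27599 bp. RICTOR lost 2 (103 at 392 bp and 66 at -15743 bp) and gained 1 of 83 at 35346 bp. MAPKAP1, a subunit gene of mTOR complex 2, lost a peak of 49 in its 5′ UTR. MLST8, whose product is common to both complexes, gained 1 of 27 and kept a shared promoter peak of 83. PRR5L gained 1 (27) and lost 2 (49 and 34), and AKT1S1, the gene of the inhibitor PRAS40, gained 1 of 14. DEPTOR and PRR5 had shared peaks only.

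Upstream regulators of mTOR had 17 gained and 15 lost peaks over 36 genes. A gained peak stood at 36.1% of them, against 29.3% of coding genes, and a lost peak at 27.8%, against 23.1%. AKT2, a kinase gene of insulin signalling, gained 2 (41 each), one of them at a promoter, and RHEB, the gene of the GTPase that activates mTOR complex 1, lost 2 (84 and 34). Effectors had 16 gained and 10 lost over 18 genes, with a gained peak at 38.9% and a lost peak at 33.3% of the genes. EEF2K, the elongation factor 2 kinase gene, accounted for 4 of the gained peaks and none of the lost, with scores of 197, 92, 49 and 34. EIF4EBP1, which encodes the translation repressor 4E-BP1, gained 2 (74 and 34), whereas with the empty vector it lost 2 and gained none. PDCD4, which encodes an inhibitor of the helicase eIF4A, lost 2 (42 and 21).

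Fatty acid and sterol synthesis was the metabolic list with the largest excess of gained peaks, 29 against 11 lost over 36 genes. A gained peak stood at 19 of them (52.8%, against 29.3% of coding genes) and a lost peak at 8 (22.2%, near the 23.1% of coding genes). Gained outnumbered lost at 15 genes (41.7%, against 21.96% of coding genes). The reverse held at 3 (8.33%, against 14.87%). SCAP, the gene of the sterol sensor that escorts SREBP, gained 5 intronic peaks (65, 41, 27, 20 and 20), lost none and kept 3. PMVK, the phosphomevalonate kinase gene, gained 2 (175 and 34) and lost none, and FDPS gained a promoter peak of 83. Some genes, among them ACSL3, belong to both this and the androgen-induced list. With the empty vector the list had 28 gained and 12 lost.

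In the other metabolic lists gained and lost peaks were nearer in number. Of the changed peaks 57.1% were gained at serine, one-carbon and ATF4 genes, 47.6% in glycolysis and 50% in polyamine synthesis, against 58.5% at all coding genes. A gained peak stood at 50%, 24% and 40% of the genes of these lists, against 29.3% of coding genes. A lost peak stood at 50%, 32% and 20% of them, against 23.1%. Serine, one-carbon and ATF4 genes had 16 gained and 12 lost peaks over 18 genes. PHGDH, the first enzyme gene of serine synthesis, gained 4 (175, 41, 34 and 27) and lost none, whereas with the empty vector it gained none and lost 3. PSAT1, the next enzyme gene, lost 3 (94, 66 and 21) and gained a promoter peak of 41. TRIB3, an ATF4 target, gained 3 (197, 57 and 49) and lost none. Glycolysis had 10 gained and 11 lost over 25 genes: HK2, the hexokinase 2 gene, gained 2 (92 and 34), and SLC2A1, the glucose transporter gene, gained 2 and lost 3, among them a promoter peak of 58. Polyamine synthesis had 4 gained and 4 lost over 10 genes, and SRM, the spermidine synthase gene, lost a promoter peak of 113 and another of 42 at 420 bp.

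Cytosolic ribosomal protein genes, whose transcripts depend on mTOR for translation, had more lost than gained peaks, 28 against 18 over 81 genes. A lost peak stood at 28.4% of them, against 23.1% of coding genes, and a gained peak at 18.5%, against 29.3%. RPSA lost a promoter peak of 49 and another of 42 at 236 bp, and RPL29 lost the promoter peak shown above. RPS6, the gene of the S6 kinase substrate, gained 2 weak distal peaks (27 and 20) and kept its promoter peak (112). The empty-vector pair had 12 gained and 15 lost there. The 36 cell cycle and replication genes had 11 gained and 11 lost peaks, against 14 and 3 with the empty vector. With the FoxA1 hairpin a gained peak stood at 19.4% of them and a lost peak at 25%, against 29.3% and 23.1% of coding genes. CDC20, the mitotic activator gene, lost 3 (84, 42 and 27), and CCNE1, the cyclin E1 gene, gained 3 (57, 49 and 34) and lost 1 (42).

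**Figure D5:**
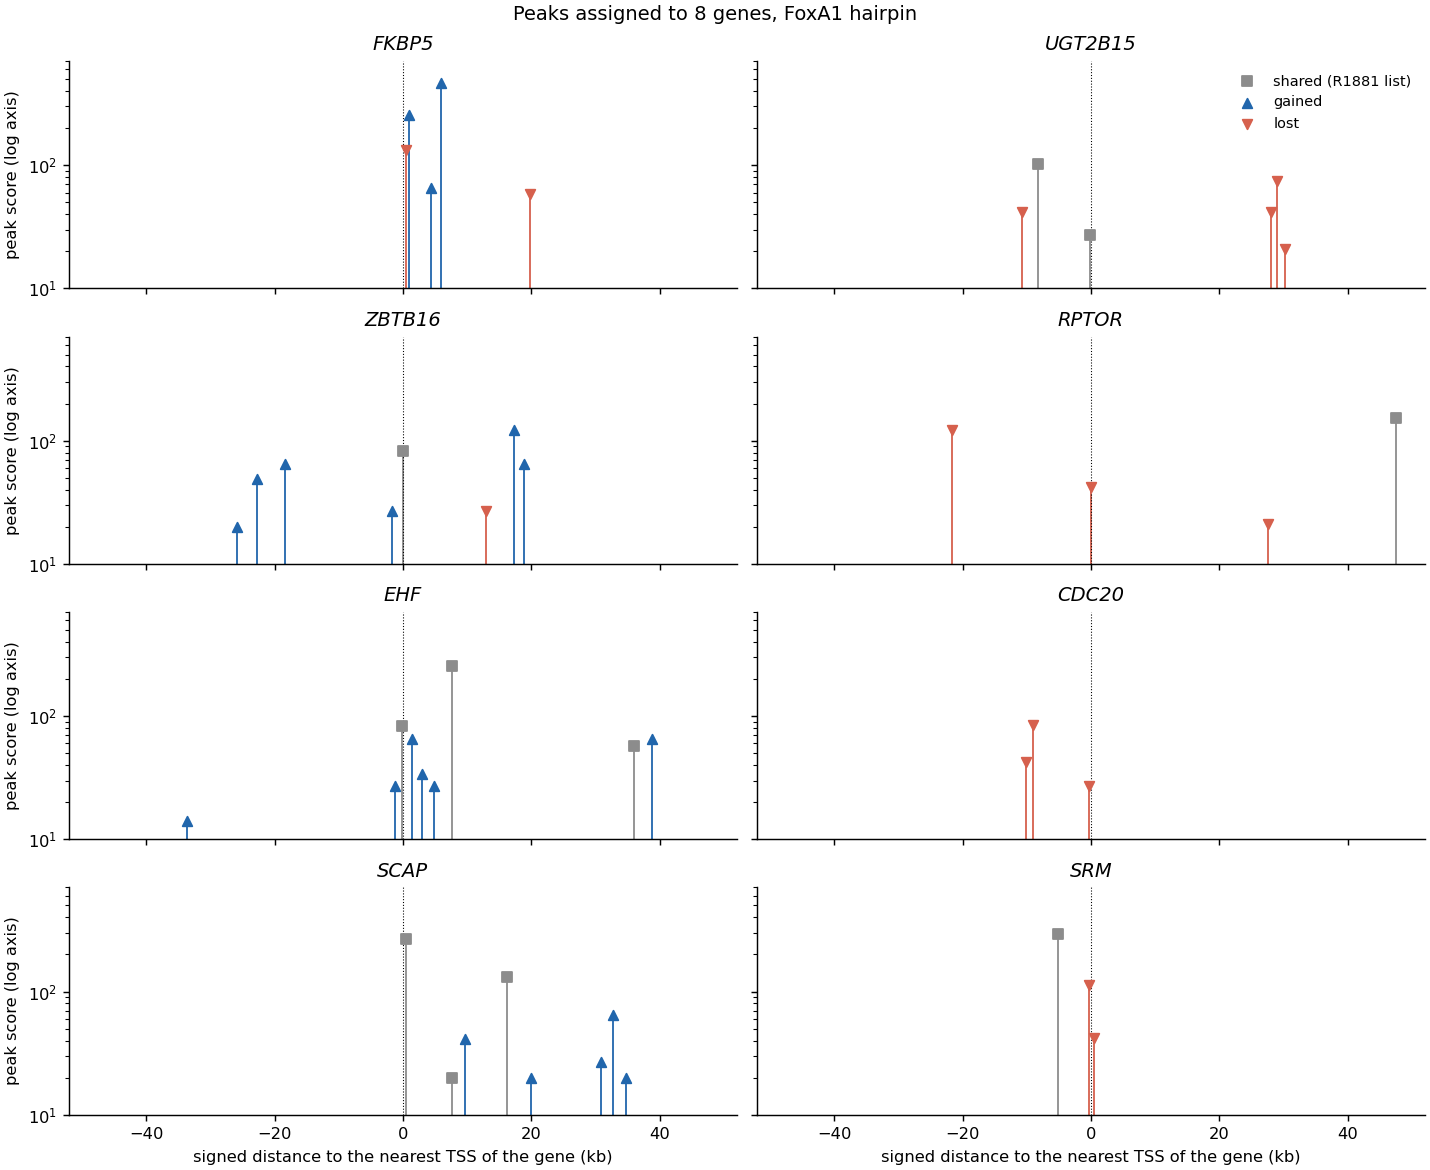
Peaks assigned to 8 genes, drawn at their signed distance from the nearest TSS of the gene (horizontal, kb) with their score (vertical, log axis); triangles pointing up are gained, pointing down lost, and squares shared. FKBP5, ZBTB16, EHF and SCAP on the left have mostly gained peaks, with a top score of 466 at FKBP5, while UGT2B15, RPTOR, CDC20 and SRM on the right have lost peaks and no gained one. Gained and lost scores come from different lists and are not to be compared with each other.

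Genes that mark other cell types were described only as loci, since no expression was measured. Neuroendocrine markers had 9 gained and 8 lost peaks over 17 genes, basal and mesenchymal ones 5 and 5 over 20, blood and endothelial markers 1 and 4 over 15, and liver, muscle and brain genes 6 and 7 over 26. Gained peaks stood at 47.1%, 20%, 6.67% and 15.4% of these genes, so only the neuroendocrine list exceeded the 29.3% of all coding genes. Lost peaks stood at 41.2%, 25%, 26.7% and 19.2% of them, against 23.1%, so the neuroendocrine list was above the coding genes in both directions. No peak of any set stood at 5 of the 17, 9 of the 20, 8 of the 15 and 12 of the 26 genes, against 40.9% of coding genes. The part of this in the shares was not tested. The empty-vector pair had 9 gained and 0 lost peaks at the basal and mesenchymal genes.

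Changed peaks were rarely near misses of the overlap rule. The nearest peak of the other list was within 100 bp for 0.658% of the gained peaks and within 1000 bp for 1511 (8.57%), and its median distance was 19924.5 bp. For lost peaks the median was 17311 bp. The median overlap of shared peaks was 428 bp, and 19 shared peaks of the R1881 list overlapped by less than 10 bp. Just outside the rule, RAB39A had a gained and a lost peak that abut, with a gap of 0 bp, and just inside it CCDC18 had a shared promoter peak with an overlap of 1 bp. Gained peaks also lay closer to each other than lost ones: 22.9% (22.3 to 23.5) had another gained peak within 10 kb, against 16.7% (16.1 to 17.4) for lost peaks; the gained set is also the larger. The shared peaks stood at 29.2%. The run with most gained peaks, 9 over 39.3 kb, lay at LOC105379514 and LINC01667 on chromosome 21, followed by 8 over 26.5 kb at the pseudogene LSP1P4. Those with fewer peaks included 7 over 31.2 kb at SLC22A16, a carnitine transporter gene, and 6 over 14.4 kb between LINC-PINT and MKLN1. The run with most lost peaks, 10 over 30.3 kb, lay at TPTE, also on chromosome 21.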

How the data were processed

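Libraries were paired-end with 150 bp reads. Per the submitters' processing notes, the build was hg38 and the tools, in no given role or order, were HOMER 4.11.1, MACS2, deepTools 3.5.0, BWA 0.7.12, Trimmomatic 0.36 and Picard 2.0.1. Per the file headers, the deposited lists are HOMER peak annotations, with the authors' peak score, the signed distance to the nearest TSS in bp, the annotation class and the fraction of G and C bases, printed here as a percentage. What control and threshold the peak caller used, and how the score is defined, are points not given in the sources used here. Coordinates are as in the files, and input libraries were not analysed here.

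Overlap of at least 1 bp, shares with Wilson intervals and their differences with Newcombe intervals were computed with Python 3.11.15, pandas 2.3.3, NumPy 2.4.6 and SciPy 1.17.1. The interval and overlap code was tested on simulated data. Genes were matched by identifier to RefSeq (GRCh38.p14), which was also used for promoter sequences. The implied TSS of 97.1% of 3153 promoter peaks lay within 1000 bp of that table. The 17 gene lists were hand-written. Named were all members of the androgen lists and mTOR subunits as space allowed, in other lists the 3 members with the largest absolute gained minus lost, the 10 genes with most gained and most lost peaks, the 10 highest-scoring peaks of each set in promoters and outside repeats, and the peaks at the edge of the rule; some of these genes are not reported here. The members and lists were chosen with earlier results of these data known. Alternatives changed the overlap rule, the score cutoff, repeats, the chromosomes X and Y and the assignment distance.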

Additional observations from a re-analysis of the deposited data

Results flagged for a closer look

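In 6 of the 17 lists the gained minus lost peaks had opposite signs with the FoxA1 hairpin and with the empty vector, a difference that was not tested. Upstream regulators of mTOR had a net of 2 with the FoxA1 hairpin and -10 with the empty vector, mTOR effectors 6 and -1, and serine, one-carbon and ATF4 genes 4 and -3. Glycolysis had a net of -1 and 4, neuroendocrine markers 1 and -2, and blood and endothelial markers -3 and 2. Each of these nets rests on 32 or fewer changed peaks with the FoxA1 hairpin.

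Peaks also stood on sequences outside chromosomes 1 to 22, X and Y, which entered no comparison: 538 in the R1881 list and 566 in the EtOH list. The empty-vector lists had 542 and 556.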

How the results depend on the processing

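No paired analysis was possible because each group has 1 library. Of 69 values recomputed under 7 alternatives, 17 stayed within their interval or within 1.5 times the reported count, and 52 moved. Most of these values are shares, which have no sign and so could not reverse. Only the nets at androgen-induced and androgen-repressed genes could, and neither took the opposite sign. The androgen-repressed net of -9 nevertheless shrank to -1 once repeat peaks were dropped, and to 0 among the top 10000 peaks. Leaving out X and Y moved none of the 11 results.

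With shared defined by 50% of the shorter peak, the gained share of R1881 peaks was 46.4%, the lost share of EtOH peaks 39.6%, promoters 7.77% of gained and 10.6% of lost, peaks within 10 kb of a TSS 29.2% and 30.9%, presence in the matching empty-vector list 23.0% and 21.7%, and coding genes with a gained peak 30.4%. With peaks within 1000 bp counted as shared, these values were 40.7%, 33.5%, 6.38%, 9.05%, 26.3%, 27.4%, 26.9%, 25.3% and 26.8%, in the same order. With each list limited to its 10000 highest-scoring peaks, the gained and lost shares were both 32.5%, promoters 8.09% and 11.1%, lost peaks within 10 kb 28.7%, presence 41.7% and 40.4%, and genes 6.87%. With repeat peaks dropped before the overlap, the 9 values were 50.02%, 41.9%, 17.2%, 24.7%, 45.5%, 56.3%, 18.5%, 15.5% and 17.9%; this turns 633 shared R1881 peaks into gained and 577 shared EtOH peaks into lost ones, since the repeat peak they overlap is gone. With repeat peaks dropped after the overlap, an alternative chosen after seeing the data, the values were 45.8%, 37.4%, 18.5%, 27.3%, 46.8%, 59.2%, 21.2%, 17.1% and 16.8%. The net at androgen-induced genes was 12 with the top 10000 peaks, 31 without repeats in either order and 19 within 10 kb, and that at androgen-repressed genes 0, -1 and -3. Genes with a gained peak within 10 kb made up 16.9%. Fewer peaks enter the settings of top peaks, repeats and distance by construction; the cause of the other shifts was not tested.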
